A study of Mus musculus with 564 samples.

Results

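H3K27ac was compared between mouse bone marrow-derived macrophages (BMDM) given IL-4 for 1 h and untreated (UT) BMDM, both in the presence of the vehicle DMSO. The comparison used 4 of the 564 libraries of the series, 2 replicates of each group, and every one of the 59190 cis-regulatory elements (CREs) in the deposited table. A CRE is here a window around an accessible site of these macrophages, with a median width of 1652 bases. The libraries were chosen by their labels alone.

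The series is a screen of clinical kinase inhibitors, in which BMDM took an inhibitor or DMSO and were then stimulated with IL-4 or LPS. All cells compared here were wild type BMDM grown from male C57/BL6 mice aged 6 to 8 weeks. The IL-4 group had 1 h of DMSO and then 1 h of IL-4 at 10 ng/mL. The UT group had 1 h of DMSO and no cytokine; the sample titles call it 0 h, whereas its treatment label gives 4 h without stimulus. Nothing states that replicates came from separate cultures or animals, so the p-values measure only a spread between libraries. For IL-4 1 h against UT, that spread was pooled over the 10 DMSO libraries without LPS and drawn toward a trend over all CREs tested. The median degrees of freedom, residual plus prior, were 47, so small p-values rest largely on this sharing between CREs. The labels give no plate or sequencing run, so the effect of IL-4 and any such difference between the groups cannot be told apart.

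H3K27ac is a histone mark laid down by the acetyltransferases CBP and p300 at active promoters and enhancers. IL-4 binds a receptor that activates the kinases JAK1, JAK3 and TYK2, which phosphorylate the transcription factor STAT6. STAT6 dimers then enter the nucleus and bind a palindrome with a spacer of 4 bases, and in macrophages this leads to the alternatively activated state, with genes such as Arg1, which encodes the enzyme arginase. Other STAT dimers favour the same palindrome with a spacer of 3 bases.

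The STAT6 palindrome, TTC and GAA with any 4 bases between them, reads alike on both strands and was looked for in the central 300 bases of each CRE. The sequences below, on the plus strand of mm10, show it in capitals with 20 bases on either side. They come from those of the 12 CREs with the largest rises that held a match, and from the promoter CREs of Socs1, Arg1 and Pdcd1lg2, because these CREs carry the main result. The name is the nearest gene.
Socs1, chr16:10700382-10700431: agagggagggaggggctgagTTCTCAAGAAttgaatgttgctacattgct
Tcf7l2, chr19:55577652-55577701: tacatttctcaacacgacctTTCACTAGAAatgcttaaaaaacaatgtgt
Ang5, chr14:43967339-43967470: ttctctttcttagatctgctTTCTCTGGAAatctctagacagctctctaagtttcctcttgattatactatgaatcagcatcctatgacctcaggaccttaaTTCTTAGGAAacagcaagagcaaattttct
Slc1a2, chr2:102791889-102791938: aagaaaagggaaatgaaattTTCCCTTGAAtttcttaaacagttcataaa
Spry1, chr3:37535898-37536063: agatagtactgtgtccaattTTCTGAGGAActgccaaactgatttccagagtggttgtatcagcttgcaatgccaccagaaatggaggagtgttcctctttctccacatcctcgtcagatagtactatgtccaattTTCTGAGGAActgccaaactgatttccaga
Clec16a, chr16:10683547-10683596: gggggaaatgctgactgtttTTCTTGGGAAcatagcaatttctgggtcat
Clec16a, chr16:10668716-10668765: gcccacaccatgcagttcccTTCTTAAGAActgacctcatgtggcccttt
Socs1 promoter, chr16:10786070-10786203: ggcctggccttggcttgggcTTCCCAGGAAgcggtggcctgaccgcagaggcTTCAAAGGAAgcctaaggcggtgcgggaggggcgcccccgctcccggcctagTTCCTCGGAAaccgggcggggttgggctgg
Arg1 promoter, chr10:24927850-24927899: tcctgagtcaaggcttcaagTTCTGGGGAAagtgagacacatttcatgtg
Pdcd1lg2 promoter, chr19:29410817-29410866: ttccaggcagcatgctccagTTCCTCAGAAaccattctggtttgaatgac

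The values are read numbers in each CRE, scaled between libraries by the authors and deposited as whole numbers. The 4 libraries held between 4784410 and 6270849 reads in CREs, as estimated from the step between low values. Replicates differed by an SD of 0.31 (UT) and 0.36 (IL-4 1 h) on the log2(value + 5) scale, against 0.77 for the difference between the means of the groups. The replicates of each group differed by more than the sampling of reads, with a mean chi-square per CRE of 1.43 in UT and 1.69 at 1 h where sampling alone gives 1. Promoter CREs of macrophage genes were strong in every library: 6 of 10 markers had one, with values between 218 and 758, against a median of 164 over all promoter CREs. Of 39 markers of other cell types, 8 had a promoter CRE. All but Cd28 (148 to 242) and Ms4a1 (18 to 87) had values of at most 24, and Ebf1, which defines B cells, had 0 or 1. The values of the macrophage markers summed to 3296 and 3217 in UT and to 2895 and 2829 at 1 h. Ms4a1, a B cell marker, fell (log2 difference -1.43, limma adjusted p = 6.80e-05), and Flt3, a dendritic cell marker, rose from 8 and 6 to 24 and 24. The part of other cells in the results was not tested.

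The test covered the 47018 CREs whose values averaged 10 or more over the DMSO libraries without LPS. IL-4 raised H3K27ac at 4447 of them (9.46%) and lowered it at 2165 (4.6%), with a limma adjusted p under 0.01 and a log2 difference over 1. Of the 6612 called CREs (14.1%), 67.3% rose. The rises were also larger. Among CREs that rose, the median log2 difference was 1.56 and 1275 exceeded 2, whereas among those that fell the median was -1.23 and 31 exceeded 2 in size. The median over all CREs tested was 0.03. CREs that rose had a median value of 22 in UT and 97 at 1 h, and CREs that fell 109 and 42, whereas the median in UT over all CREs tested was 60.5. Part of this is set by the calls themselves and by the filter, since 1049 of the CREs that rose had a mean under 10 in UT and were tested only through the IL-4 libraries. All 6612 called CREs had IL-4 libraries both above or both below the UT libraries, which held for 67.7% of all CREs tested. Of the called CREs, 209 consisted to at least 20% of words of 51 bases that recur in the genome. These included the largest fall (-5.24), at the start of Tcte3, where 98.4% of words recurred, so it cannot be placed with certainty. That CRE had 168 and 201 in UT and 0 and 0 at 1 h, but between 158 and 203 at the other times of IL-4 and at 1 h of LPS, so the 1 h libraries stood apart there. The CRE in Cenpo, with 21 and 21 in UT and 0 and 0 at 1 h, was the only other one at 0 in both 1 h libraries and at 20 or more in both UT libraries; it was also at 0 in 1 library of 2 h. CREs with at least 20% of such words were left out of the largest rises and falls named next.

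**Figure D1:**
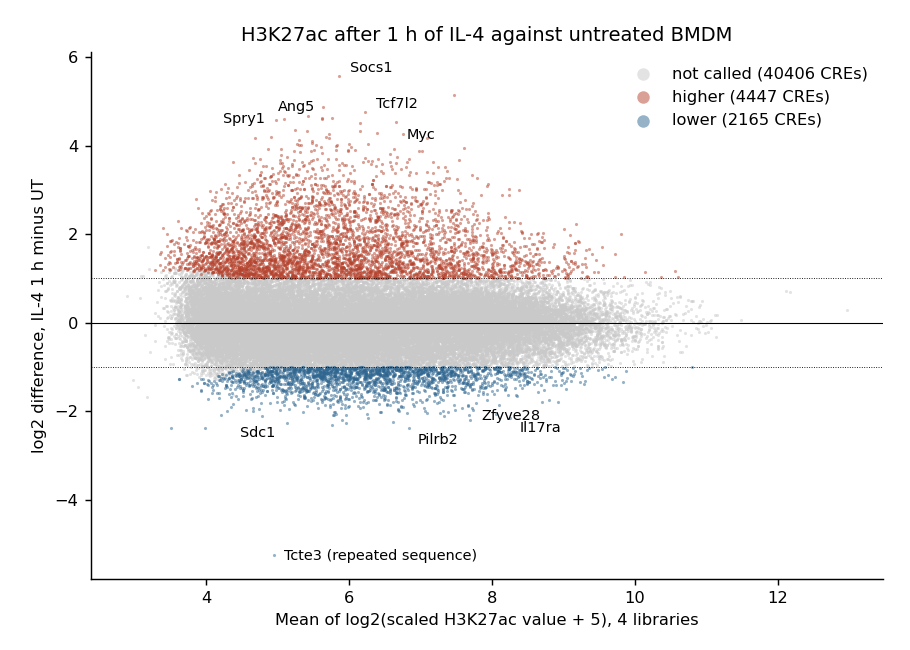
Each point is 1 of the 47018 CREs tested, with the mean log2(scaled value + 5) of the 4 libraries on the x axis and the log2 difference between IL-4 1 h and UT on the y axis; dotted lines mark a difference of 1. The 4447 CREs called higher reach 5.58, whereas all but 1 of the 2165 called lower lie above -3.

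The largest rise, which was also the largest of all CREs, lay in an intron of Clec16a, which encodes a regulator of mitophagy, 85.1 kb beyond the start of Socs1 (chr16:10699537-10701291). Socs1 encodes an inhibitor of JAK kinases that limits cytokine signalling. This CRE had values of 5 and 2 in UT and 385 and 404 at 1 h, a log2 difference of 5.58 (SE 0.16, adjusted p = 1.68e-31). The next CRE in the same intron (chr16:10701759-10705104) went from 30 and 20 to 1000 and 1095 (5.15, SE 0.11). Both CREs thus had little mark in UT, and replicates lay close together compared with the distance between groups.

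The neighbouring CREs rose as well. Called CREs less than 50 kb apart were joined, and the interval chr16:10639462-10858957, 219 kb long, held 24 CREs that rose and no other tested CRE. Their log2 differences ranged from 1.21 to 5.58, with a median of 3.6. Of the 12 CREs named as the largest rises, 7 were in this interval, and with CREs of recurring words counted it held 5 of the 12 largest. The interval spans introns of Clec16a, the promoter of Socs1 and Rmi2, which encodes a subunit of the BLM helicase complex. The Socs1 promoter CRE, 0.619 kb from the start, had the highest value of the interval at 1 h and a smaller difference than 20 of its CREs. It went from 251 and 274 to 1264 and 1217 (2.22, SE 0.08, adjusted p = 4.28e-27), and it held the 3 matches printed above. Only 5 of the 24 CREs held a match in their central 300 bases.

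The other 5 of the 12 CREs lay near different genes. A CRE in an intron of Vti1a, 164 kb before the start of Tcf7l2, a transcription factor of the Wnt pathway, went from 7 and 12 to 351 and 417 (4.76, SE 0.15), and all 16 CREs tested in its interval rose. A CRE 821 kb beyond Myc, which encodes a transcription factor of cell growth, went from 16 and 16 to 417 and 549 (4.53, SE 0.13). The CRE near Spry1, an inhibitor of receptor tyrosine kinase signalling, went from 1 and 3 to 133 and 199 (4.6, SE 0.2). Near Slc1a2, a glutamate transporter gene, values of 6 and 4 became 205 and 275 (4.61, SE 0.17). The CRE near Ang5, a gene of the angiogenin ribonuclease family, went from 5 and 7 to 232 and 300 (4.62, SE 0.15). Reads of its close copies may be shared, since 16.3% of its words recurred, and 2 similar CREs near Gm8113 and Rnase2b (4.87 and 4.67) were set aside for recurring words.

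**Figure D2:**
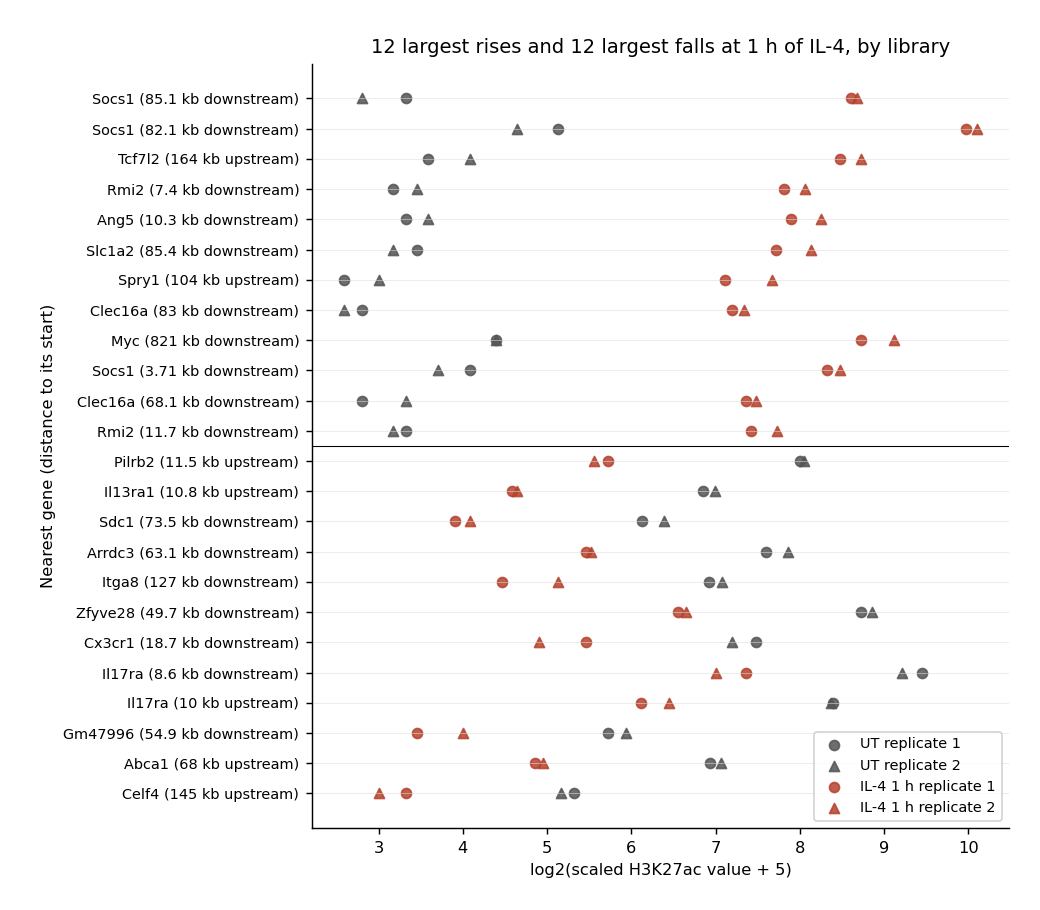
Each row is a CRE, named by its nearest gene and the distance to that gene's start, with the log2(scaled value + 5) of the UT (grey) and IL-4 1 h (red) libraries. The upper 12 rows are the largest rises and the lower 12 the largest falls among CREs with under 20% recurring words; in each row the IL-4 libraries lie on one side of the UT libraries.

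The falls were of another size. With CREs of recurring words left out, the largest, 11.5 kb before Pilrb2, which encodes an activating receptor of myeloid cells, went from 251 and 259 to 48 and 42 (-2.38, SE 0.2, adjusted p = 6.39e-14). A CRE 10.8 kb before Il13ra1, whose product pairs with the IL-4 receptor alpha chain, fell from 110 and 122 to 19 and 20 (-2.3, SE 0.27). A pair of CREs at Il17ra, the IL-17 receptor gene, fell by 2.15 and 2.1 on the log2 scale. The stronger of them went from 695 and 586 to 159 and 123. A CRE in Zfyve28, a gene of endosomal receptor sorting, fell from 418 and 459 to 89 and 95 (-2.19, SE 0.15). A CRE 18.7 kb beyond the start of Cx3cr1, the fractalkine receptor gene, fell from 174 and 142 to 39 and 25 (-2.16, SE 0.24). The CREs near Sdc1, Arrdc3, Itga8, Gm47996, Abca1 and Celf4 made up the rest of the 12, between -2.26 and -2.08. None of the 12 held a STAT6 match.

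Called changes lay mostly away from promoters. CREs within 1 kb of a start made up 21.9% of those tested, 7.17% of those that rose and 2.54% of those that fell. Of the 10316 promoter CREs, 3.09% rose and 0.533% fell. Their median difference was 0.19, far below the threshold but above the -0.05, -0.08 and -0.02 at 1 to 10 kb, 10 to 50 kb and over 50 kb. Beyond 50 kb from any start, 14.8% of 9864 rose and 7.45% fell. The CREs were also put into 5 classes of about equal size by their mean over the 10 DMSO libraries without LPS. The share that rose was 3.59% in the lowest class, 12.7% in the middle class and 9.08% in the highest. The share that fell was 2.31%, 7.15% and 2.28% in the same classes.

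STAT6 matches were frequent where the mark rose and rare where it fell. Such a match stood in the central 300 bases of 9.22% of all 59190 CREs and of 9.68% of those tested. It stood in 33.5% of the CREs that rose (1489) and in 3.28% of those that fell (71). The share grew with the size of the rise, from 24.1% of CREs between 1 and 1.5 to 56.4% of the 241 between 3 and 4. Away from promoters the shares were 10.9% of those tested, 35.1% of those that rose and 3.27% of those that fell. Read the other way, 32.7% of the 4551 tested CREs with a match rose and 1.56% fell. Matches are descriptions of the sequence and not of STAT6 binding, and most CREs that rose had none in this window.

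The share that rose also differed with the number of matches and with the bases of the spacer. Of 42467 CREs without a match, 6.97% rose. With 1 match, 30.7% of 4257 rose, with 2 matches 59.7% of 278, and with 3 or more 14 of 16, the Socs1 promoter among them. Among CREs with 1 match, read on either strand, TTCTNNAGAA had the highest share, with 41.7% of 648 risen. TTCCNNGGAA and TTCCNNAGAA each had 38.5%. TTCANNTGAA had 13% of 247. The search itself had left these bases free.

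Other motifs, searched on both strands, are given as shares of the CREs tested, of those that rose and of those that fell. The palindrome with a spacer of 3 bases, TTCNNNGAA, stood in 9.59% of CREs tested, 17.2% of those that rose and 6.65% of those that fell. Of its 763 CREs that rose, 211 also held the STAT6 form. The AP-1 site TGANTCA, bound by FOS and JUN, stood in 19.1%, 22.4% and 23.7%, and the C/EBP site TTGCNNAA in 14.5%, 16% and 19.5%, respectively. The site GAGGAAGT of the lineage factor PU.1 stood in 9.2%, 9.65% and 12.1%. Away from promoters the AP-1 shares were about level, at 22.9%, 23.5% and 23.8%. Those of C/EBP were 16.3%, 16.4% and 19.7% there, and those of PU.1 10.9%, 10.2% and 12.2%. The remaining letters searched were a repeat of GAAA with 2 free bases between for IRF (5.4%, 5.73% and 3.79%), GGGA and TTCC with 2 free bases between for NF-kB (1.94%, 2.23% and 1.48%), CACGTG for E-box factors (6.04%, 4.34% and 5.13%), GCGNGGGCG for EGR (2.52%, 0.787% and 0.277%) and GGGCGGGG for SP and KLF factors (7.36%, 2.7% and 1.99%). The EGR and SP sites lie mostly at promoters, where few CREs were called, and stood in 0.439% and 2.45% of the tested CREs elsewhere.

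**Figure D3:**
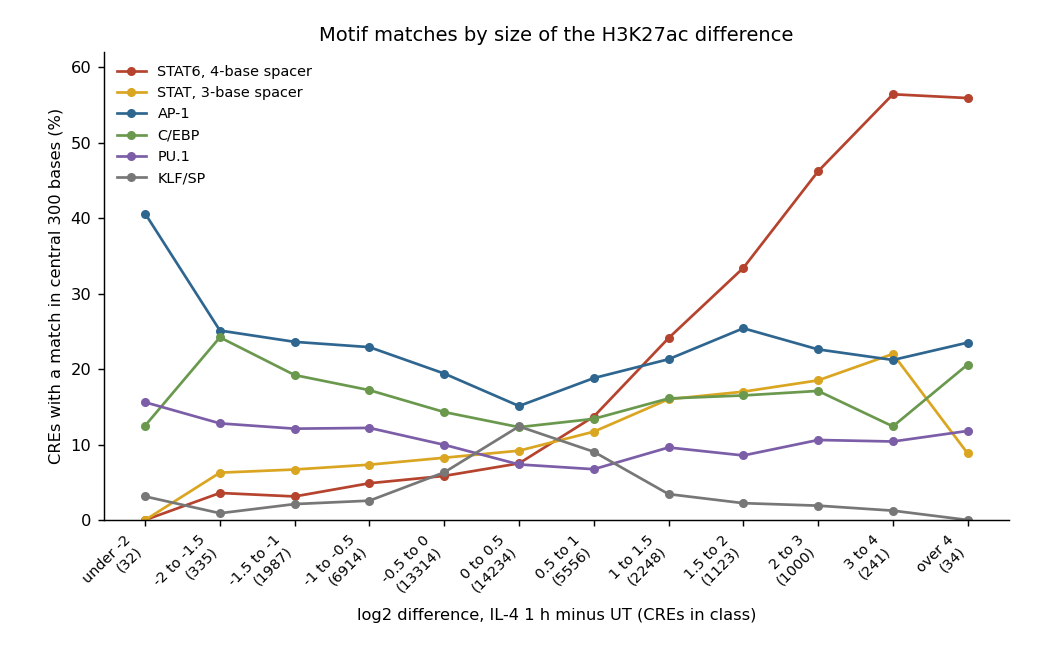
The share of CREs with a match to each of 6 motifs in the central 300 bases (y axis) is given for classes of the log2 difference between IL-4 1 h and UT (x axis, number of CREs in brackets). The STAT6 palindrome goes from 3.58% between -2 and -1.5 to 56.4% between 3 and 4; the outermost classes hold 32 and 34 CREs.

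Called CREs less than 50 kb apart were joined into intervals over the whole genome, and no background was computed for the shares in them. Of the 4447, 32.1% lay in 183 intervals of at least 5 called CREs, and of the 2165 that fell, 22.1% lay in 69 such intervals. The largest interval of rises, chr10:67486828-67749609, held 34 called CREs of 39 tested next to Egr2, Ado and Zfp365. Egr2 encodes a zinc finger transcription factor of alternatively activated macrophages. Its promoter CRE went from 211 and 219 to 852 and 694 (1.82, SE 0.1, adjusted p = 3.43e-21). Among all genes, Ado, a thiol dioxygenase gene beside Egr2, and Myc were nearest to the most CREs that rose, 28 each, of 30 tested for Ado and 54 for Myc. They were followed by Gsdmc with 20 of 24, Pde4d with 20 of 38, St7 with 18 of 19, Pan3 with 16 of 20, Dusp4 with 16 of 29 and Cited2 with 16 of 60. The CREs of Gsdmc and Myc lie side by side on chromosome 15. The CREs that rose lay at a median of 327 kb from the start of Myc, 261 kb from Gsdmc and 503 kb from Cited2. The median was 95.3 kb for Ado, 106 kb for Pde4d, 107 kb for Dusp4, 82.3 kb for Pan3 and 19.2 kb for St7. Pan3 is next to Flt1 and Flt3, in an interval with 19 called of 23 tested CREs.

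For falls, the gene with the most called CREs was Pid1, a gene of insulin signalling, with 16 of 31 tested. It was followed by Nrp1 with 15 of 36, and by Abca1 with 14 of 17 and Zfp36l2 with 14 of 37. Zfat (13 of 26), Gm5426 (11 of 27), Thbs1 (11 of 17) and Nfkbiz (9 of 27) completed the first 8. The CREs that fell lay at a median of 275 kb from the start of Nrp1, 278 kb from Zfat and 135 kb from Thbs1. For the other genes the median was at most 95.4 kb. At Abca1, the cholesterol efflux transporter gene, the promoter CRE fell from 305 and 358 to 76 and 81 (-2.01, SE 0.17, adjusted p = 7.13e-14). Together with CREs near Slc44a1 it formed the largest interval of falls, 398 kb with 23 called of 35 tested CREs and no rise.

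CREs were then counted for 11 lists of genes, each CRE with its nearest gene within 100 kb. The lists were chosen with earlier results of these data known, so their shares and ranks are a description and not a test. Of all 42441 tested CREs within that distance, 8.7% rose and 4.23% fell, with a median of 0.03. The effectors of alternative activation moved most, with 73 of 136 CREs (53.7%) risen, 3 fallen and a median of 1.11. A CRE rose near 21 of the 27 genes found. The promoter CRE of Arg1 went from 123 and 141 to 654 and 656 (2.27, SE 0.1, adjusted p = 4.9e-24), and all 6 CREs of Arg1 rose. The promoter of Pdcd1lg2, which encodes the inhibitory ligand PD-L2, went from 6 and 8 to 217 and 214 (4.2, SE 0.17), and all 7 of its CREs rose. The promoter of Flt1, a VEGF receptor gene, went from 37 and 25 to 381 and 360 (3.4, SE 0.15). The promoter of Slc7a2, an arginine transporter gene, went from 14 and 14 to 200 and 174 (3.33, SE 0.18). The promoter of Mgl2, a galactose-binding lectin gene, went from 95 and 78 to 487 and 499 (2.45, SE 0.11). At Mrc1, the mannose receptor gene, the promoter had values of 285, 279, 491 and 461 and a difference of 0.74, below the threshold, while a CRE 46.6 kb into the gene rose by 2.29.

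Of the IL-4 receptor signalling list, 38 of 115 CREs (33%) rose and 3 fell, with a median of 0.37. Of the 38, 11 were at Socs1. The promoter CRE of Cish, whose product inhibits STAT5, went from 68 and 73 to 402 and 395 (2.42, SE 0.12, adjusted p = 3.99e-22). That of Socs2 went from 37 and 31 to 290 and 263 (2.85, SE 0.15). Jak2, a kinase gene, had 7 of 8 CREs risen and a promoter difference of 1.22 (SE 0.1). Irs2, which encodes an adaptor of the IL-4 receptor, had 8 of 17 CREs risen, up to 2.92. The promoter of Stat6 had values of 694, 691, 582 and 546 and a difference of -0.29, below the threshold. The 3 CREs that fell were at Il13ra1 and at Stat6, where one 6.95 kb before the start fell by 1.39 on the log2 scale.

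Among the transcription regulators of alternative activation, 30 of 159 CREs (18.9%) rose and 4 fell, with a median of 0.29. A CRE 34.4 kb before Irf4, a regulator of IL-4 responses, went from 41 and 49 to 402 and 445 (3.1, SE 0.12, adjusted p = 2.22e-26), while the Irf4 promoter differed by 0.95. A CRE 35 kb before Klf4 went from 9 and 9 to 216 and 223 (4, SE 0.16). At Batf3, a bZIP factor gene, 7 of 8 CREs rose and the promoter went from 67 and 87 to 309 and 273 (1.86, SE 0.14). A CRE 4.83 kb before Nfil3, another bZIP factor gene, went from 32 and 32 to 274 and 284 (2.94, SE 0.14). Pparg, a lipid-sensing nuclear receptor gene, had a single called CRE out of 14, which fell by 1.05. The fall was 0.87 in size without IL-4 1 h replicate 1, which is below the threshold.

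The immediate early genes had 12 CREs that rose (8.11%) and 11 that fell (7.43%) among 148, with a median of -0.2. Over all CREs within 100 kb the shares were 8.7% and 4.23%, so the share that rose was near that of all CREs. Falls lay near 8 genes, among them Fos, where a CRE 5.06 kb before the start went from 440 and 381 to 165 and 176 (-1.24, SE 0.13, adjusted p = 1.02e-10), and Fosb, where one went from 253 and 227 to 80 and 114 (-1.28, SE 0.19). Rises lay near 5 genes, among them Egr2, Jun and Fosl2. The CREs of Egr2 are counted both in this list and in that of the transcription regulators. The promoters of Jun, Junb and Egr1 differed by 0.16, -0.12 and 0.12, and 1 of the 18 promoters tested, that of Egr2, passed the threshold.

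Inflammatory genes, most of which are targets of LPS, had 36 of 196 CREs (18.4%) risen and 12 fallen, with a median of 0.13. The members divided by gene. Ccl2, a monocyte chemokine gene, had 6 of 8 CREs risen, the largest from 87 and 72 to 446 and 554 (2.58, SE 0.14, adjusted p = 2.28e-20), and a promoter difference of 0.75. The promoter of Cd40, a costimulatory receptor gene, went from 98 and 80 to 432 and 385 (2.14, SE 0.13). Tlr4, the LPS receptor gene, had 4 of 9 CREs risen, up to 2.64. In contrast, all 4 CREs nearest to Clec4d, a lectin receptor gene, fell, and its promoter went from 729 and 745 to 274 and 317 (-1.31, SE 0.12). Both CREs of the neutrophil chemokine gene Cxcl2 fell, the larger from 324 and 256 to 99 and 127 (-1.32, SE 0.17).

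The lipid handling and nuclear receptor list was the one with more falls than rises, 15 (10.9%) against 9 (6.52%) of 138, with a median of -0.25. Over all CREs within 100 kb, 4.23% fell and 8.7% rose. Of the 15 falls, 12 were at Abca1. Abcg1, another cholesterol transporter gene, had a CRE that rose from 38 and 20 to 251 and 294 (3.08, SE 0.17, adjusted p = 5.87e-21). Apoe, an apolipoprotein gene, had promoter values of 763, 771, 458 and 428, a difference of -0.79 that did not pass the threshold.

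The other lists are read against the 8.7% risen over all CREs. Interferon-stimulated genes had 7 of 86 (8.14%) risen and none fallen at this threshold. At Irf7, a regulator of interferon genes, 3 of 3 CREs rose, with the largest difference at 1.9 (SE 0.11, adjusted p = 1.21e-19). The Irf7 promoter, at 1.08, came to 0.99 when libraries were centred on their strongest CREs. The promoters of Ifit1, Rsad2 and Mx1 differed by 0.17, 0.06 and 0.08. Macrophage lineage regulators had 19 of 216 (8.8%) risen and 3 fallen, with 6 of 11 risen at Tfec, a relative of Mitf. Cell growth and cycle genes had 14 of 108 (13%) risen and 2 fallen, and chromatin regulators 18 of 125 (14.4%) and 3. In the latter, 3 of 6 CREs of Crebbp, which encodes the acetyltransferase CBP, rose, up to 3.31. Of 37 CREs of housekeeping genes none was called by limma, their median was 0 and Gapdh had promoter values of 433, 436, 481 and 512.

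**Figure D4:**
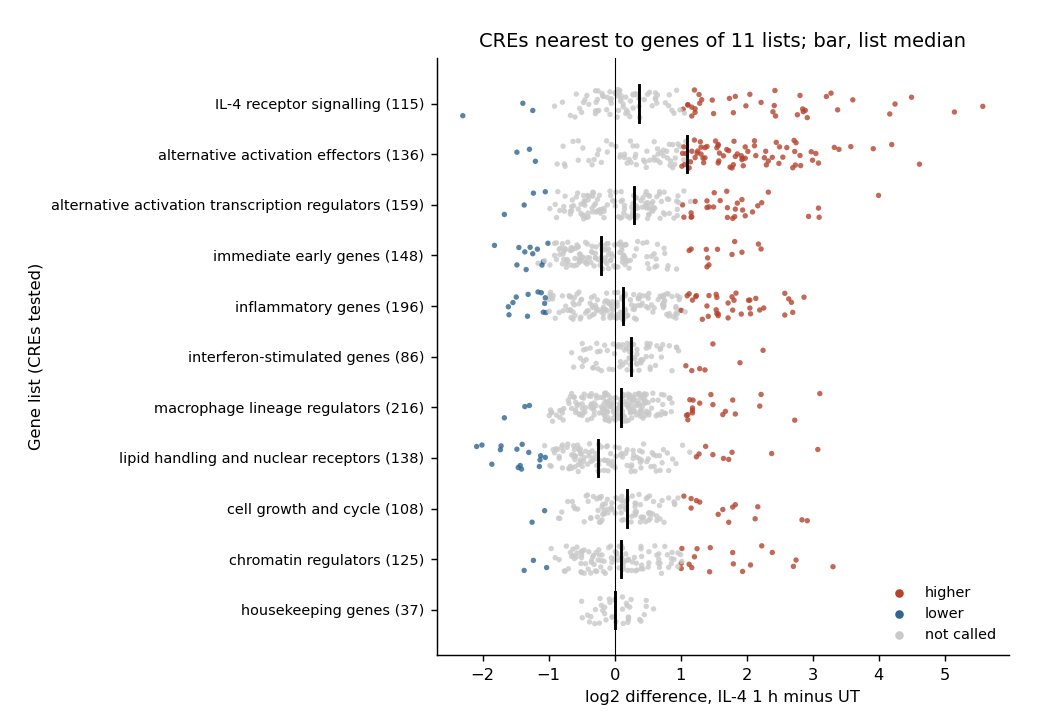
Each point is a tested CRE within 100 kb of its nearest gene, placed by the log2 difference between IL-4 1 h and UT (x axis) in the row of its gene list; the number of CREs is in brackets, the bar is the list median and the colour the call. The effectors of alternative activation have a median of 1.11, while immediate early genes (-0.2) and lipid genes (-0.25) lie below 0. The lists were chosen with earlier results of these data known.

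The 1 h libraries were also set against the other times of IL-4. Their log2 differences from UT are given side by side, since all times share the UT libraries. CREs that rose at 1 h had a median of 1.59 at 30 min, 1.56 at 1 h, 1.53 at 2 h and 1.45 at 4 h. CREs that fell had medians of -0.73, -1.23, -1.36 and -1.03. Both sets were selected at 1 h, which favours large values at that time. The median of the rises was thus about level over the times, whereas that of the falls was smaller in size at 30 min.

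The direct comparison of 1 h with 30 min called 599 of 47018 CREs (1.27%), 87 higher (0.185%) and 512 lower (1.09%) at 1 h. Of the 512, 33.2% held an AP-1 site and 24% a C/EBP site, against 19.1% and 14.5% of all CREs tested. Only 2.15% of the 512 were promoter CREs, and of the tested CREs away from promoters 22.9% and 16.3% held these sites. Of the 87, 35.6% were promoter CREs, against 21.9% of all CREs tested, and 19.5% held a STAT6 match, against 9.68%. The 1 h libraries are part of both comparisons, so the values are a description. The median difference of the 512 from UT was 0.38 at 30 min and -0.84 at 1 h. At the promoter of Gda, the guanine deaminase gene, the values were 99 and 83 in UT, 148 and 139 at 30 min, and 31 and 44 at 1 h. A CRE 44.8 kb before Asns, the asparagine synthetase gene, had 27 and 11 in UT, 69 and 56 at 30 min and 8 and 11 at 1 h. Among the 87, a CRE in Ppargc1b, a coactivator gene, nearest to the start of Pde6a, had 5 and 2 in UT, 8 and 7 at 30 min, 35 and 37 at 1 h and 86 and 82 at 2 h. IL-4 30 min replicate 2 was the shallowest library of this comparison, with an estimated 2701092 reads in CREs against 4660864 in replicate 1. The 30 min replicates differed by an SD of 0.4 on the log2(value + 5) scale. The count and its split rested on the libraries and on the fit. It was 225 (47 higher, 178 lower) without IL-4 1 h replicate 1, 760 (53, 707) without IL-4 1 h replicate 2, 560 (227, 333) without IL-4 30 min replicate 1, 574 (230, 344) after quantile normalization, and 1 with a spread not fitted against the level.

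From 1 h to 2 h, 139 CREs (0.296%) were called, 5 higher (0.0106%) and 134 lower (0.285%). The count was 39 without IL-4 1 h replicate 2, 59 without IL-4 2 h replicate 1, and 1 with a spread not fitted against the level. In an intron of Tbc1d4, a regulator of vesicle traffic, the values were 9 and 28 at 1 h and 54 and 58 at 2 h. At Prkcb, a protein kinase C gene, an intronic CRE went from 186 and 187 in UT to 72 and 71 at 1 h and 15 and 21 at 2 h.

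From 1 h to 4 h, 1458 CREs (3.1%) were called, 483 higher (1.03%) and 975 lower (2.07%). Without IL-4 1 h replicate 1 it was 282 higher and 1097 lower, without IL-4 1 h replicate 2 it was 494 and 584, without IL-4 4 h replicate 1 it was 289 and 763, and without IL-4 4 h replicate 2 it was 303 and 1123. With a spread not fitted against the level 597 were called. Of the 975, 29.6% held an AP-1 site and 18.5% a C/EBP site, against 19.1% and 14.5% of all CREs tested. Away from promoters, 22.9% and 16.3% of the tested CREs held them. A CRE in an intron of Cd36, the scavenger receptor gene, had 173 and 152 in UT, 731 and 767 at 30 min, 367 and 413 at 1 h, 124 and 172 at 2 h and 54 and 84 at 4 h. A CRE 15.4 kb before Tgm2, the transglutaminase gene, had 62 and 47 in UT, 130 and 144 at 1 h and 15 and 18 at 4 h. These CREs had risen at 1 h and had values below those of UT at 4 h. The CRE near Ang5 went on rising, from 232 and 300 at 1 h to 740 and 714 at 4 h (1.44, SE 0.15, adjusted p = 2.78e-10).

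**Figure D5:**
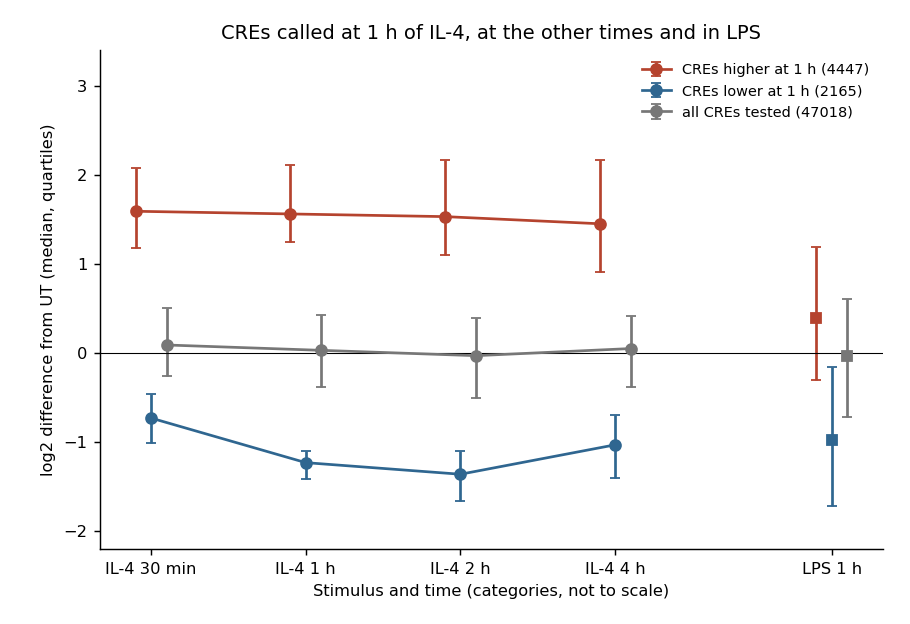
Medians and quartiles (bars) of the log2 difference from UT are plotted for the CREs called at 1 h of IL-4 and for all CREs tested, at 4 times of IL-4 (circles) and at 1 h of LPS (squares); all share the UT libraries. CREs that rose stay between 1.45 and 1.59 over the times of IL-4 and have a median of 0.39 in LPS.

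LPS, a bacterial ligand of TLR4, was given to other DMSO-treated BMDM for 1 h at 10 ng/mL. A direct comparison called 17654 of 50587 CREs (34.9%), 8489 higher (16.8%) and 9165 lower (18.1%) in IL-4. The filter on the mean used all 18 DMSO libraries here, so CREs that were strong only with LPS could enter and be called lower. Over the 47018 CREs tested against UT, 8489 (18.1%) were higher and 6772 (14.4%) lower in IL-4. Among the CREs that had risen against UT, 2596 (58.4%) were higher than in LPS and 256 (5.76%) lower. Among those that had fallen, 598 (27.6%) were lower than in LPS and 210 (9.7%) higher. The 2 comparisons share the IL-4 libraries, so these shares are a description. The Socs1 CRE with the largest rise had 385 and 404 in IL-4 and 9 and 12 in LPS (4.69, SE 0.32, adjusted p = 4.70e-16). A CRE in Kdm4c, a histone demethylase gene, had 32 and 24 in UT, 444 and 515 in IL-4 and 15 and 13 in LPS. In the other direction, a CRE in Ptges, the prostaglandin E synthase gene, had 9 and 9 in IL-4 and 525 and 509 in LPS. Of the CREs higher in IL-4 19.4% held a STAT6 match, and of the 6772 lower ones that were also tested against UT 7.68%. Among all CREs tested against UT the share was 9.68%.

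The authors checked each precipitated sample by PCR at 3 loci, of which 2 lie in CREs of the table. Failed samples were removed by this check and by fragment size. The libraries were thus kept in part by their signal at these loci, and the values here are a description. The CRE used for IL-4 (chr1:40321234-40323610), 2.21 kb before Il1rl2, the IL-36 receptor gene, went from 37 and 34 in UT to 260 and 273 at 1 h (2.75, SE 0.14, adjusted p = 4.12e-22) and differed from UT by -0.05 in LPS. The CRE used for LPS, in an intron of Fpr3 near Fpr2, a formyl peptide receptor gene, went from 120 and 92 to 32 and 30 with IL-4 (-1.61, SE 0.25) and had 1155 and 1067 in LPS. The values of the replicates lay close together at both loci, and the UT and IL-4 libraries did not overlap.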

How the data were processed

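Mapped H3K27ac ChIP-seq reads of 4 libraries were compared, with 6 to 14 further DMSO libraries used for shared variance or other contrasts. Per the study's methods, the authors mapped single reads, trimmed to 51 bases, to mm10 with ShortStack, counted them in windows around ATAC-seq summits and scaled libraries on invariant peaks; the submitters' notes also name Bowtie and SAMtools. The deposited values are whole numbers after scaling, so they were taken as a score (scaled counts), not raw counts, and were tested as log2(value + 5) with limma 3.58.1 in R 4.3.3, using a mean-variance trend over the 10 DMSO libraries without LPS (all 18 for LPS), CREs with a mean of at least 10, and Benjamini-Hochberg adjustment over all CREs tested. Calls needed an adjusted p below 0.01 together with a log2 difference over 1. An exact permutation test of 2 against 2 cannot go below 0.33. In simulated data for IL-4 1 h against UT, 86 of 100 CREs changed by 1.5 and 100 of 100 changed by 2.5 were called, with 1 false call among 47144 CREs. The changes were placed only in CREs that also passed a higher limit on the mean than 10. Apart from them, all libraries were drawn around the same mean of each CRE with a fixed noise. Recovery at weak CREs and false calls in the real libraries were therefore not measured.

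The nearest protein-coding start and gene parts came from GENCODE vM21 (basic), and sequences from RefSeq GRCm38, which is mm10. Named were the 12 largest rises and falls with libraries apart and under 20% recurring words, for list genes the largest called and the promoter CRE, the 5 largest of each other contrast, the 8 genes with the most called CREs, and the PCR loci. The members and lists were chosen with earlier results of these data known. The tables of the kinase inhibitors were not used here. Plates and sequencing runs are not in the labels.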

Additional observations from a re-analysis of the deposited data

Results flagged for a closer look

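The following effects of the 2 stimuli, or of IL-4 at different times, differed by a direct limma test. The count of CREs that differed was 599 between IL-4 1 h and 30 min, 139 between 2 h and 1 h, 1458 between 4 h and 1 h, and 17654 between IL-4 1 h and LPS 1 h.

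Among the named CREs, the following had differences from UT of at least 1 in opposite directions, with a direct difference whose SE was 0.15 to 0.34. From 1 h to 4 h of IL-4, the CREs 15.4 kb and 10.2 kb before Tgm2 changed by -2.73 and -2.66 on the log2 scale, the CRE in Cd36 changed by -2.44 and that near Agr3 by -3.08. Between IL-4 1 h and LPS 1 h, the difference was 2.95 and 2.79 at the same Tgm2 CREs, 4.64 at a CRE in Clec16a nearest to Socs1 (chr16:10712810-10714373) and 4.64 at a CRE near Gsdmc. It was -2.19 at Gda and -4.95 at the Fpr2 CRE.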

How the results depend on the processing

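The labels number the replicates of each group 1 and 2. Deviations of samples with the same number were hardly correlated (-0.0964 to 0.0827 between groups), and no pairing was modelled in the main fit. Read sampling is a large part of these deviations, so they cannot settle whether such samples shared a culture, animal or day. With a replicate block the counts were 6603 for IL-4 1 h against UT (4441 higher, 2162 lower), 599 against 30 min, 139 for 2 h, 1462 for 4 h and 17664 against LPS.

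The comparison with UT moved with the threshold and with low values. It called 18424 CREs (10196 higher, 8228 lower) at an adjusted p under 0.05 without a log2 threshold, 12350 (7147, 5203) with a log2 difference over 0.5, 4005 (2948, 1057) with a pseudocount of 20, and 4201 (2950, 1251) with a mean of at least 50. Under the same 4 settings the 30 min contrast called 6086, 2483, 207 and 354, and the 4 h contrast 8217, 4287, 638 and 941. The 2 h contrast called 1482, 534 and 50 under the first 3. The LPS contrast called 28632 under the first and 10861 with a mean of at least 50. Centring on the strongest CREs gave 3986 higher and 2935 lower CREs in the comparison with UT, and moved the median difference from LPS from 0.03 to -0.12. Without a mean-variance trend, 1 CRE was called against 30 min, 1 for 2 h and 597 for 4 h. From the 4 libraries alone, 39 were called for 2 h. A pseudocount of 20 shrinks low values, and fewer CREs were tested with a mean of at least 50; the other causes were not tested. Leaving out 1 library gave 5614 to 6066 calls in the comparison with UT (3683 to 4454 higher, 1470 to 2383 lower), 225 to 760 against 30 min, 39 to 196 for 2 h, 1052 to 1426 for 4 h and 15932 to 16233 against LPS; the lone replicate is then assumed to vary like the other groups. Of 2158 values of 146 named CREs under alternatives, none changed direction and 101 lost the call, none of them among the 24 largest rises and falls.

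The 12172 CREs with a mean under 10 were not tested at this depth.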
